A study of Mus musculus with 8 samples.

Results

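This account follows 9 genes of the 32285 listed in the count tables: the secreted Wnt ligands Wnt5a and Wnt16 and the secreted antagonists Dkk2, Sfrp1, Sfrp2, Sfrp4, Frzb, Wif1 and Sostdc1. They were picked by gene symbol, with earlier results of these data known, and all 9 were found. Cells without CD45, taken from the synovium of mouse ankles and wrists, had been profiled by droplet-based single-cell RNA sequencing of 3′ transcript ends. The cells of 17 animals, each marked by a hashtag antibody, were pooled into 4 libraries. Of 47658 barcodes, 24227 carried the authors' annotation, which names 5 fibroblast classes (lining, Mmp3+, Il6+, Cd200+ and Pi16+) and 2 further classes, chondrocytes and osteoblasts.

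The 3 unsorted libraries each held 3 arthritic animals and 1 healthy animal. The arthritic animals carried the human TNF transgene hTNFtg197 (strain B6-Tg(TNF)197Gkl), had received Il23mc for 9 days and were 8 to 10 weeks old, and this holds for all 4 arthritic groups. They were otherwise untreated (n = 3), treated with anti-hTNF (TNF-inhibited, n = 3) or treated with anti-mIL-17a (IL-17-inhibited, n = 3), with 1 condition per library. The remaining library held 5 arthritic animals that had received Il23mc and no inhibitor, sorted for FAP and Pdpn (FAP-sorted, n = 5). The healthy animals were wild type, without transgene or Il23mc (n = 3), and were given the same age. Since each treatment is 1 library, treatment and library coincide among the arthritic animals, and the healthy animal of each library is the only link between libraries. What drives the transgene in which cells is not given in the labels, nor is the time or dose of the antibodies.

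Wnt proteins are lipid-modified, secreted ligands that bind Frizzled receptors together with the co-receptors Lrp5 and Lrp6 and stabilise β-catenin, or act through Ror and Ryk receptors without β-catenin. Secreted antagonists act outside the cell at both points: the Sfrp proteins, Frzb and Wif1 bind the ligands themselves, while Dkk2 and Sostdc1 bind Lrp co-receptors. In joints and bone this balance is known for its part in bone formation and in the upkeep of cartilage.

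The 9 genes are protein-coding and lie on 8 chromosomes of the mm10 build, with Dkk2 at chr3:132085292-132180304 and Sfrp2 at chr3:83766321-83774316 on chromosome 3. The other members are Frzb at chr2:80411970-80447625 (minus strand), Wnt16 at chr6:22288227-22298522, Sfrp1 at chr8:23411502-23449632, Wif1 at chr10:121033960-121100650, Sostdc1 at chr12:36314139-36318452, Sfrp4 at chr13:19623104-19632994 and Wnt5a at chr14:28504750-28527448. Promoters from RefSeq (GRCm38.p6) were matched for 5 of the 9 genes. Of these, 3 are shown, those whose RefSeq start coincides with the annotated gene start, because in healthy animals the classes that gave most of their fibroblast UMIs differ: Il6+ and Pi16+ cells for Dkk2, Il6+ and Cd200+ cells for Sfrp2 and Cd200+ cells for Wnt16. Each line gives the 250 bases before the start on the plus strand, at chr3:132085042-132085291, chr3:83766071-83766320 and chr6:22287977-22288226, with motif matches in capitals.
Dkk2: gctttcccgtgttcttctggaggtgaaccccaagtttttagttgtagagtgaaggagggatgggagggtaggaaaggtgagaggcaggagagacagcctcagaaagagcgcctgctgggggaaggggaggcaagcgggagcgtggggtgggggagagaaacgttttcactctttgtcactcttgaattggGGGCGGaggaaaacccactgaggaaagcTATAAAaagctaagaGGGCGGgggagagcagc
Sfrp2: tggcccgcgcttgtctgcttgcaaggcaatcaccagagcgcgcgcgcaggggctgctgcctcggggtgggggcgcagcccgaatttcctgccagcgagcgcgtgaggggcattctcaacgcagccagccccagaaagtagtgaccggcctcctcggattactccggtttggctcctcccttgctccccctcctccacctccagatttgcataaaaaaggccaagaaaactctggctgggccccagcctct
Wnt16: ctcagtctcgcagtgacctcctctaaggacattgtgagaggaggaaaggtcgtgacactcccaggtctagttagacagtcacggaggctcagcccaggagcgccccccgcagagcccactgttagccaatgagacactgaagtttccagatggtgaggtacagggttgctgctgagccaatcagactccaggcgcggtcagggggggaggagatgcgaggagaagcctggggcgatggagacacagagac
On these windows 5 motifs were searched on both strands: the TCF/LEF core CTTTGA (in 13.8% of 32851 promoter windows of this length), the AP-1 motif TGANTCA (6.75%), the STAT motif TTCNNNGAA (7.02%), the TATA motif TATAAA (12.4%) and the GC box GGGCGG (32.7%). The Dkk2 window held TATAAA at bases 32 to 27 before the start and GGGCGG at bases 60 to 55 and 17 to 12. The Sfrp2 and Wnt16 windows held none of the 5 motifs, which says only that these letters are not in these windows.

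Fibroblast counts of unique molecular identifiers (UMIs) were summed per animal over the 5 fibroblast classes. The sums held 413 to 749 cells in healthy animals and 783 to 2037 in arthritic ones, with totals of 4508588 to 36786390 UMIs. Levels are given as CPM, the UMIs of a gene relative to all UMIs of the sum, scaled between animals by the trimmed mean of M-values (TMM). In such sums, fewer cells of a type and less RNA per cell cannot be told apart. The healthy animals' hashtag had the highest raw hashtag count in only 34.9%, 22.7% and 9.93% of the cells assigned to healthy animals 1, 2 and 3, although it ranked first in all of them once each hashtag was scaled within its library. Y-linked UMIs were seen in 2.94%, 23.1% and 17.7% of these cells, and Xist without a Y-linked UMI in 88.8%, 65.4% and 67.3%. Results against healthy animals were therefore also computed without the healthy cells that had a Y-linked UMI. That setting cannot remove cells that came from an animal with few Y-linked UMIs. Among arthritic animals the share with a Y-linked UMI was 4.09%, 57.8% and 3.48% in untreated and 81.3%, 86.5% and 4.87% in TNF-inhibited animals. It was 75.5%, 2.97% and 2.34% in IL-17-inhibited and 74.1%, 73.4%, 2.43%, 2.95% and 3.18% in FAP-sorted animals. Each arthritic animal thus had a share of at most 4.87% or of at least 57.8%, and healthy animals 2 and 3 lay between. Healthy animals 2 and 3 may each hold cells of more than 1 animal, which was not tested. They are counted below as 1 animal each. No fit held a term for sex. Libraries shared 60 annotated barcodes.

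The classes carried the genes they are named for: Prg4, the lubricin gene of lining cells, was highest in the lining class, and Mmp3, Il6, Cd200 and Pi16 were each highest among fibroblast classes in their own class in untreated animals. The class annotated as osteoblasts expressed the bone matrix gene Ibsp. The class annotated as chondrocytes held little of the cartilage genes Acan and Col2a1: Acan was at 83.1 ± 22.4 CPM in untreated and 38.8 ± 27.3 CPM in healthy animals, and Col2a1 at 124 ± 214 and 4.49 ± 4.95 CPM (SD, n = 3 each). In healthy animals of this class Cytl1, another chondrocyte marker, and Chad stood above these levels, with values given below. The class is called here the class annotated as chondrocytes.

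The mix of fibroblast classes differed between untreated arthritic and healthy animals. Mmp3+ cells were 38.8 ± 3.70% of fibroblasts in untreated animals and 3.70 ± 1.90% in healthy animals, Pi16+ cells 1.20 ± 0.24% and 43.0 ± 1.15%, and Il6+ cells 47.8 ± 4.64% and 37.4 ± 0.833% (SD, n = 3 each). Healthy levels within Mmp3+ cells thus rest on 57 cells and arthritic levels within Pi16+ cells on 54.

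Each member had its own distribution over the classes, described here without a test because the classes were built from all genes. Sostdc1, which binds Lrp co-receptors and also BMP ligands, had most of its UMIs in Mmp3+ cells: 85.7 ± 3.36% of its fibroblast UMIs in untreated animals came from that class, against 52.7 ± 3.68% of all UMIs (SD, n = 3). After thinning each cell to 5000 UMIs, 9.73 ± 2.40% of untreated Mmp3+ cells held a Sostdc1 UMI, against 6.70 ± 2.10% of untreated Cd200+ cells, within the spread, and 0.249 ± 0.431% of untreated lining cells. Before thinning these shares were 17.1%, 12.3% and 1.36%, at median depths of 22370, 11274 and 22598 UMIs. The Sostdc1 level was 44.2 ± 8.74 CPM in untreated Mmp3+ and 24.1 ± 5.90 CPM in untreated Cd200+ cells, while the mean was higher in Cd200+ than in Mmp3+ cells in IL-17-inhibited (16.1 ± 10.5 and 9.24 ± 5.53 CPM) and FAP-sorted animals (22.9 ± 18.5 and 16.4 ± 6.46 CPM), within the spread. In healthy animals its few UMIs were spread over the classes, with 30.6 ± 18.3% in Cd200+ and 37.8 ± 24.6% in Pi16+ cells. Healthy Cd200+ and Pi16+ cells held 9.07 ± 1.53% and 44.9 ± 1.13% of all UMIs.

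Wnt16, a ligand known for maintaining cortical bone, had most of its fibroblast UMIs in Cd200+ cells in untreated and in healthy animals. That class gave 78.7 ± 3.45% of its fibroblast UMIs in untreated and 91.3 ± 3.26% in healthy animals, while holding 4.24 ± 1.27% and 9.07 ± 1.53% of all UMIs (SD, n = 3 each). In FAP-sorted animals Cd200+ cells gave 49.5 ± 17.5% of the Wnt16 UMIs and 3.8 ± 1.8% of all UMIs, and Mmp3+ cells 43.8 ± 20.3% and 74.4 ± 8.8% (SD, n = 5). Its level in Cd200+ cells was 67.4, 97.4 and 112 CPM in untreated animals and 115, 132 and 67.9 CPM in healthy animals, so the groups overlapped. A thinned Wnt16 UMI was seen in 24.7 ± 10.9% of untreated and 27.8 ± 3.16% of healthy Cd200+ cells (37.4% and 36.9% before thinning, at median depths of 11274 and 10036 UMIs). Lining cells, the comparison for stray UMIs, held one in 0.249% of untreated and 0.813% of healthy cells before thinning, at median depths of 22598 and 17204 UMIs. After thinning it was 0 of 289 and 0 of 113 lining cells, which allows shares with a UMI at that depth of up to 1.04% and 2.65%. The class annotated as osteoblasts expressed it too, at 44.2 ± 2.95 CPM in untreated and 144 ± 38.7 CPM in healthy animals.

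Dkk2 UMIs came mostly from Il6+ cells in untreated arthritic animals and from Il6+ and Pi16+ cells in healthy ones. Il6+ cells gave 83.6 ± 7.30% of its fibroblast UMIs in untreated and 42.7 ± 12.8% in healthy animals, and Pi16+ cells 2.12 ± 1.97% and 50.8 ± 10.6% (SD, n = 3 each). Of all UMIs, Il6+ cells held 33.6 ± 4.35% and 31.0 ± 0.34%, and Pi16+ cells 0.964 ± 0.371% and 44.9 ± 1.13%. In FAP-sorted animals Il6+ cells gave 41.2 ± 10.6% of the Dkk2 UMIs, Mmp3+ cells 27.8 ± 8.22% and Pi16+ cells 22.2 ± 10.6% (SD, n = 5). These classes held 12.9 ± 5.2%, 74.4 ± 8.8% and 5.3 ± 2.0% of all FAP-sorted UMIs. The Dkk2 level per class was less uneven: in untreated animals it was 57.8 ± 4.45 CPM in Il6+, 42.4 ± 25.8 CPM in Cd200+ and 38.0 ± 36.3 CPM in Pi16+ cells, which overlapped, and 41.7 ± 8.42 CPM in the class annotated as chondrocytes. Mmp3+ cells had 2.34 ± 0.435 CPM and lining cells 0.357 ± 0.328 CPM. In healthy animals the level in Il6+ cells (67.1 ± 34.9 CPM) and in Pi16+ cells (44.2 ± 2.15 CPM) did not differ beyond their spread.

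Wnt5a, a ligand that acts mostly without β-catenin, was lowest among fibroblast classes in lining cells and present in the other 4 fibroblast classes. In untreated animals its order among fibroblast classes was Cd200+ (53.7 ± 1.67 CPM), Pi16+ (27.2 ± 20.3), Il6+ (23.0 ± 2.40), Mmp3+ (12.9 ± 1.76) and lining, where no UMI was counted in 292 cells. Pi16+ and Il6+ cells did not differ beyond their spread in that order. The class annotated as osteoblasts had a higher mean than Cd200+ cells, at 101 ± 59.9 CPM in untreated animals. In healthy animals the means were 61.3 ± 25.2 CPM in that class and 42.4 ± 6.96 CPM in Cd200+ cells. Pi16+ cells gave 1.73 ± 1.15% of the Wnt5a UMIs in untreated animals and 54.6 ± 1.75% in healthy animals. They held 0.964 ± 0.371% and 44.9 ± 1.13% of all UMIs.

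Among the Frizzled-related proteins, Sfrp1 and Sfrp2 had their highest mean, within untreated fibroblasts, in Il6+ cells (185 ± 21.2 and 124 ± 31.7 CPM), which Cd200+ cells (134 ± 69.6 and 119 ± 87.0 CPM) matched within the spread. Sfrp4 was highest in Cd200+ cells, at 176 ± 57.5 CPM in untreated and 373 ± 108 CPM in healthy animals, and higher still in the class annotated as osteoblasts, at 217 ± 62.6 and 626 ± 90.9 CPM. Frzb was near the limit of detection: 53 UMIs were counted in untreated and 76 in healthy fibroblasts. Wif1, which binds ligands through its WIF domain, was at its highest in the class annotated as chondrocytes (82.4 ± 10.8 CPM in untreated and 447 ± 194 CPM in healthy animals), the osteoblast class (91.1 ± 20.2 and 75.4 ± 52.1) and Cd200+ cells (51.7 ± 29.1 and 239 ± 112). Among untreated fibroblasts, lining cells had the lowest mean for every member except Wif1 and Wnt16, which were lower still in Pi16+ cells.

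**Figure D1:**
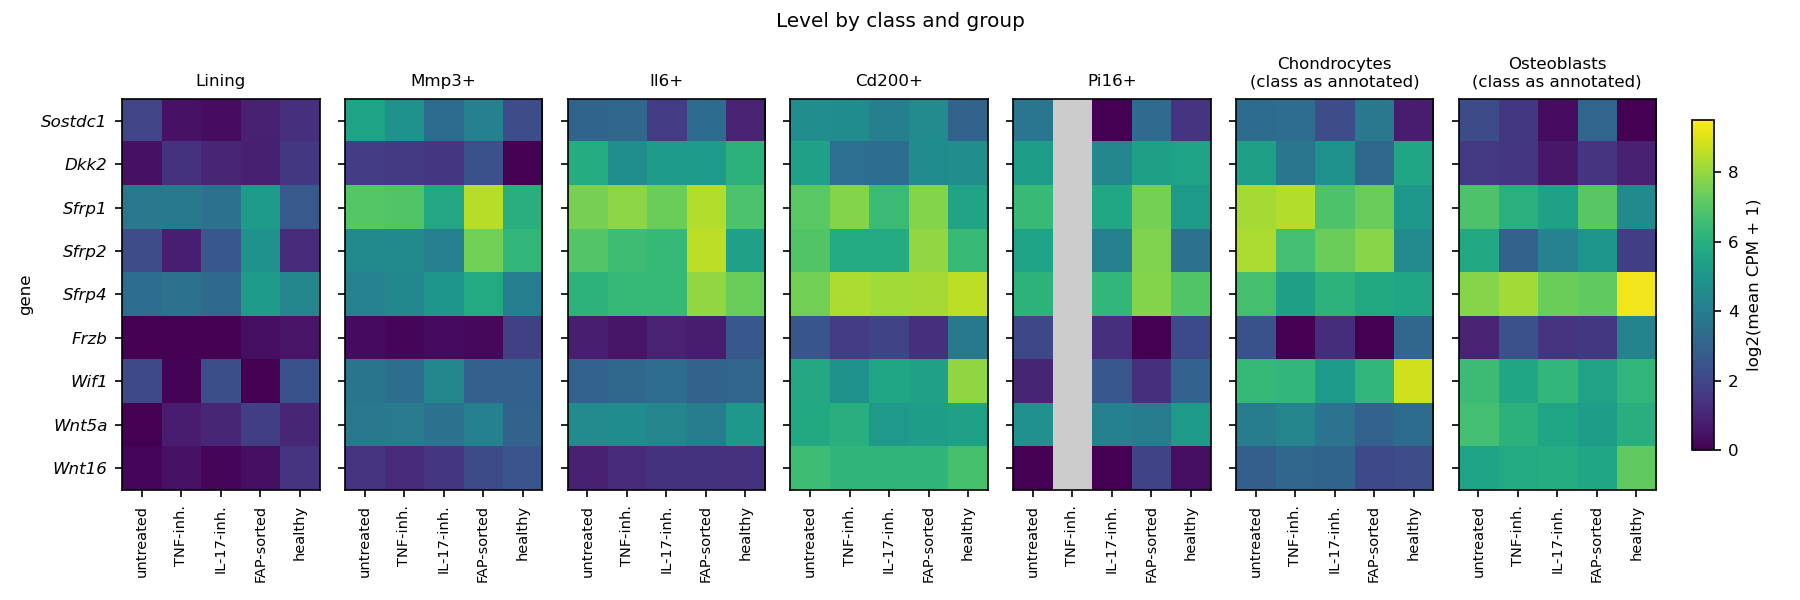
Level of each member (colour, log2 of TMM-scaled CPM + 1, mean over animals) by class and by group, with untreated arthritic first and healthy last. Wnt16 stands out in Cd200+ cells and the osteoblast class in every group, and Dkk2 is low in lining, Mmp3+ and osteoblast-class cells; grey marks a class with fewer than 10 cells per animal.

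Of the 9 members, 7 passed an adjusted p of 0.05 between untreated arthritic and healthy fibroblasts, against 28.7% of the 14348 genes tested: Sostdc1 and Sfrp1 were higher, and Frzb, Sfrp4, Wif1, Dkk2 and Wnt5a lower. Over all genes 14.4% were called higher and 14.3% lower. The median log2 fold change was −0.82 over the members and 0.01 over all genes. The members were chosen with earlier results of these data known, so these values describe the list and do not test it.

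Sostdc1 had 19.2, 30.5 and 27.7 CPM in untreated animals and 2.21, 1.44 and 2.34 CPM in healthy animals. Every untreated animal was above every healthy one. The log2 fold change was 3.71 ± 0.41 (SE, edgeR adjusted p = 2.5e-05). Sfrp1 had 117, 140 and 126 CPM in untreated animals and 51.9, 46.7 and 56.1 CPM in healthy animals, again without overlap, a log2 fold change of 1.32 ± 0.17 (edgeR adjusted p = 7.1e-05). Sfrp2, its close relative, had 70.2, 41.4 and 52.9 CPM in untreated and 27.3, 8.16 and 48.3 CPM in healthy animals. Healthy animal 3 lay inside the untreated range, and the difference did not pass (log2 1.00 ± 0.41, edgeR adjusted p = 0.085), while without that animal it was 1.59 with an edgeR adjusted p of 0.0135. Of the 248 Sfrp2 UMIs of healthy animal 3, 55 came from a single Mmp3+ cell. The comparison was not computed without that cell.

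Among the lower genes, Sfrp4 had 49.9, 36.1 and 36.0 CPM in untreated animals and 108, 133 and 154 CPM in healthy animals (log2 −1.69 ± 0.30, edgeR adjusted p = 0.00094). Wif1 had 7.90, 9.47 and 15.4 CPM in untreated animals and 26.4, 17.5 and 41.5 CPM in healthy animals (log2 −1.33 ± 0.32, edgeR adjusted p = 0.0077). Frzb had 0.391, 0.749 and 0.694 CPM in untreated animals and 2.21, 4.48 and 5.65 CPM in healthy animals (log2 −2.62 ± 0.47, edgeR adjusted p = 0.00099). For these 3 antagonists the groups did not overlap.

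Wnt5a had 14.9, 16.7 and 16.7 CPM in untreated animals and 30.6, 26.6 and 27.9 CPM in healthy animals, the narrowest spread of the members relative to its mean (log2 −0.81 ± 0.12, edgeR adjusted p = 0.00028). Dkk2 had 25.7, 19.1 and 19.3 CPM in untreated animals and 50.2, 30.1 and 39.2 CPM in healthy animals. Its groups did not overlap either, but it was the least firm call (log2 −0.91 ± 0.31, edgeR adjusted p = 0.041), lost without untreated animal 2 or 3 or healthy animal 1 or 3, where the adjusted p was 0.0865 to 0.174. Wnt16 had 2.74, 6.05 and 7.63 CPM in untreated and 11.6, 10.9 and 7.41 CPM in healthy animals and did not pass (log2 −0.82 ± 0.29, edgeR adjusted p = 0.051), though it did without untreated animal 3 (−1.12, edgeR adjusted p = 0.019) or healthy animal 3 (−0.97, edgeR adjusted p = 0.0437) and by DESeq2 (−0.84, DESeq2 adjusted p = 0.0284).

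The Dkk2, Frzb and Wif1 calls did not hold when library was a term of the fit (log2 −1.23, −1.76 and −1.23, edgeR adjusted p = 0.0746, 0.0831 and 0.0575) or when only the healthy animal of the same library was used (log2 −1.22, −1.74 and −1.22, edgeR adjusted p = 0.0607, 0.0727 and 0.0922). With healthy cells that had a Y-linked UMI left out, all 7 calls in the fibroblast sums held and Wnt16 passed too (log2 −0.97, edgeR adjusted p = 0.0226). Markers of other cells moved with disease in the same fibroblast sums. The 7 osteoblast markers summed to 57.3 to 169 CPM in untreated and 374 to 572 CPM in healthy animals, the 7 chondrocyte markers to 4.38 to 7.19 and 46.7 to 79.1, the 7 keratinocyte markers to 31.5 to 34.4 and 124 to 329, and the 6 leukocyte markers to 32.9 to 38.9 and 10.6 to 14.2. Their part in these results was not tested.

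**Figure D2:**
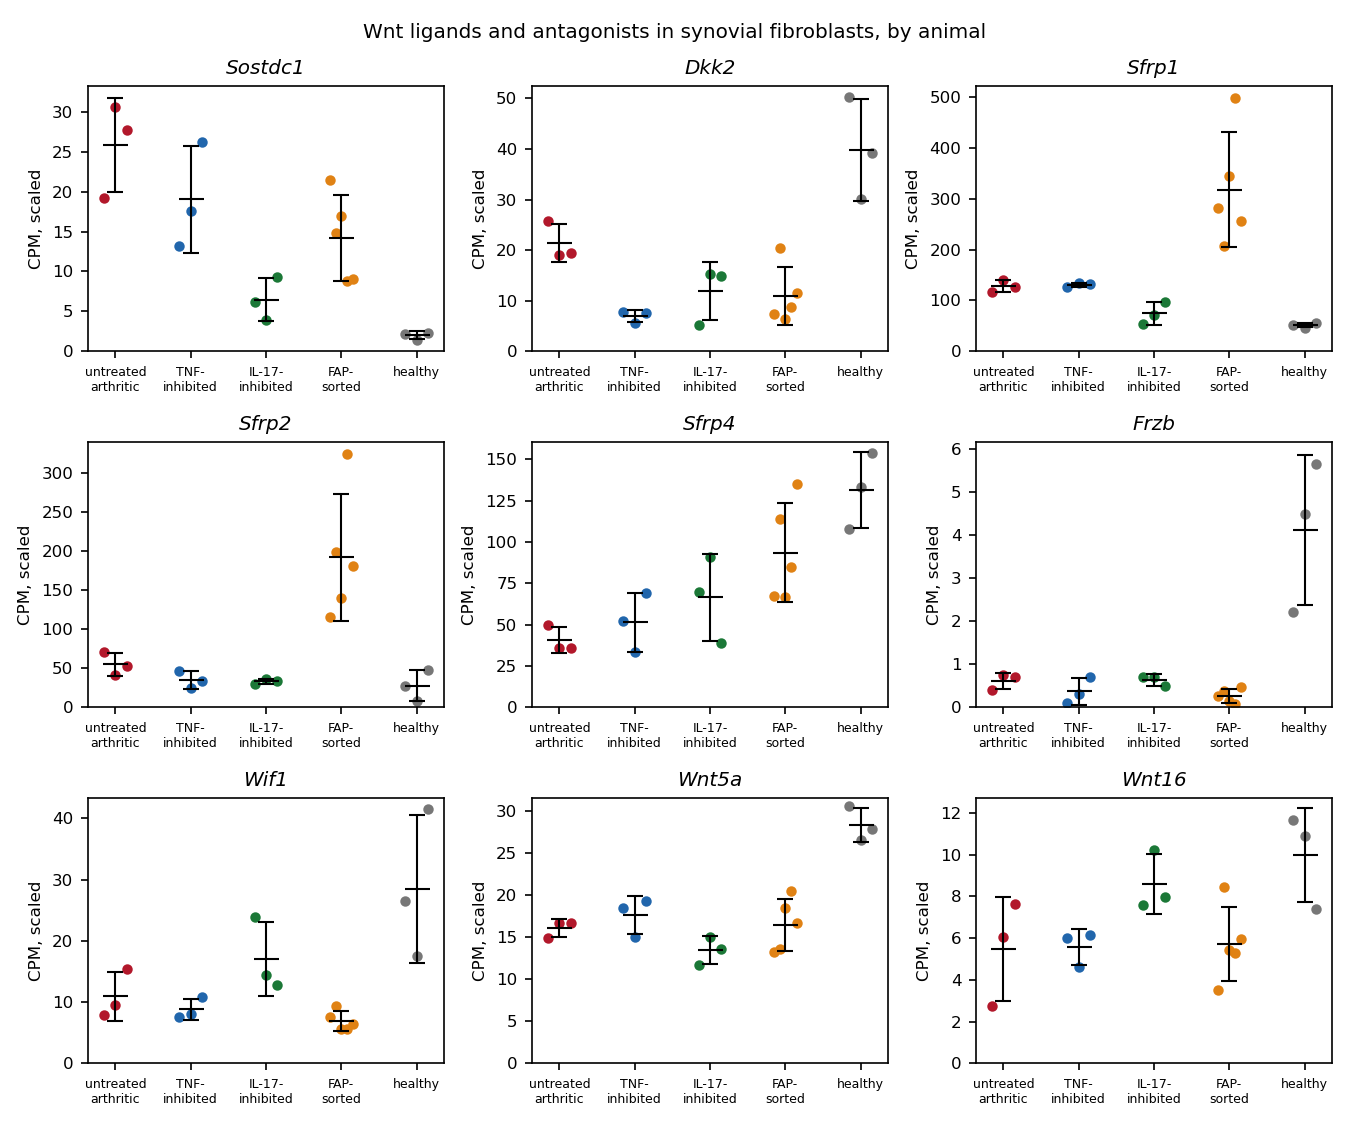
TMM-scaled CPM of each member in the summed fibroblasts of each animal (1 point per animal), by group, with healthy animals last; each panel has its own axis. Untreated and healthy animals do not overlap for Sostdc1, Sfrp1, Sfrp4, Frzb, Wif1, Dkk2 and Wnt5a, and overlap for Sfrp2 and Wnt16. The Sfrp2 overlap is with healthy animal 3, where 1 cell gave 55 of 248 UMIs.

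Sums within 1 class remove a difference in the mix of the annotated classes. Within a class, a difference in level and a difference in which cells the class holds cannot be told apart. Within Il6+ cells, where 6.91% of genes passed, Sfrp2 and Sfrp1 were higher in untreated animals and Sfrp4 and Frzb lower. Sfrp2 had 143, 87.2 and 141 CPM in untreated Il6+ cells and 51.5, 12.1 and 62.9 CPM in healthy ones (log2 1.54 ± 0.36, edgeR adjusted p = 0.018). Sfrp1 had 175, 170 and 209 CPM in untreated and 118, 90.2 and 128 CPM in healthy Il6+ cells (log2 0.71 ± 0.17, edgeR adjusted p = 0.023). So Sfrp2, which did not pass over all fibroblasts, passed within the class that gave most of its UMIs. Sfrp4 differed there by log2 −1.27 ± 0.36 (edgeR adjusted p = 0.047) and Frzb by −2.50 ± 0.54 (edgeR adjusted p = 0.011), on 20 untreated and 24 healthy Frzb UMIs. The Frzb call was lost without the healthy cells that had a Y-linked UMI (log2 −2.05, edgeR adjusted p = 0.0511). Each of these 4 calls was lost when at least 1 of the 6 animals was left out, and none was left without untreated animal 3.

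Within Cd200+ cells (4.27% of genes passed), Wif1 had 42.5, 28.4 and 84.3 CPM in untreated animals and 239, 128 and 351 CPM in healthy animals. The groups did not overlap (log2 −2.17 ± 0.37, edgeR adjusted p = 0.0025), and this call held with any 1 animal left out. Sfrp1 was higher there (log2 1.59 ± 0.40, edgeR adjusted p = 0.033), a call lost without untreated animal 2 or 3 or any of the healthy animals. Wnt16 in its main class differed by log2 −0.14 ± 0.25 (edgeR adjusted p = 0.85). In these Cd200+ cells the osteoblast markers summed to 240 to 583 CPM in untreated and 2470 to 4660 CPM in healthy animals, and the chondrocyte markers to 9.48 to 40.3 and 448 to 852, and their part in the Wif1 result was not tested.

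In the class annotated as chondrocytes (12.9% of genes passed) Sfrp1 and Sfrp2 were higher in untreated animals. Sfrp2 had 329, 437 and 209 CPM there in untreated animals and 22.5, 9.92 and 36.9 CPM in healthy animals (log2 3.79 ± 0.57, edgeR adjusted p = 0.0005). Sfrp1 had 206, 315 and 365 CPM in untreated and 30.7, 37.2 and 30.6 CPM in healthy animals (log2 3.14 ± 0.50, edgeR adjusted p = 0.00081). In the same cells Wif1 was lower, with 85.2, 70.4 and 91.5 CPM in untreated and 671, 322 and 348 CPM in healthy animals (log2 −2.47 ± 0.37, edgeR adjusted p = 0.00051). In this class Sfrp1 and Sfrp2 were thus higher and Wif1, which also binds ligands, lower. Other genes of this class differed as well: Chad was at 132 CPM in untreated and 2839 CPM in healthy animals, and Cytl1 at 1.32 and 272 CPM. Sostdc1 passed there too (log2 3.58 ± 1.01, edgeR adjusted p = 0.03), on 68 untreated and 2 healthy UMIs, and lost its call without any one of 4 animals, untreated 3 and healthy 1, 2 and 3.

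The class annotated as osteoblasts (8.93% of genes passed) had less Wnt16 and Sfrp4 in arthritis. Wnt16 had 46.0, 45.8 and 40.8 CPM in untreated animals and 108, 140 and 185 CPM in healthy animals (log2 −1.81 ± 0.23, edgeR adjusted p = 0.00012). Sfrp4 had 221, 152 and 277 CPM in untreated and 564, 730 and 583 CPM in healthy animals (log2 −1.61 ± 0.25, edgeR adjusted p = 0.00065). Both calls held with any 1 animal left out. Sfrp1 (log2 2.07 ± 0.50, edgeR adjusted p = 0.016) was higher and Frzb (log2 −3.86 ± 0.87, edgeR adjusted p = 0.0099) lower, each losing its call without untreated animal 2 and without at least 1 healthy animal, and Sfrp1 also with a minimum of 20 cells (log2 1.62, edgeR adjusted p = 0.0958). These cells numbered 124 in untreated and 68 in healthy animals, and the osteocalcin gene Bglap was at 148 ± 57.0 CPM in untreated and at least 8269 CPM in every healthy animal.

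No member passed within lining cells (4 members tested, 13.2% of genes passed), Mmp3+ cells (8 tested, 6.84%) or Pi16+ cells (5 tested, 3.43%) by edgeR, the only tool run within classes. At an unadjusted p under 0.05 the counts were 2, 3 and 2 members, beside 25.5%, 19.5% and 14.9% of all genes. Sostdc1 in Mmp3+ cells was 1 of these: it had 34.7, 51.9 and 46.0 CPM in untreated animals and 0, 7.41 and 3.96 CPM in healthy animals, on 0, 2 and 1 UMIs in 16, 17 and 24 healthy cells (log2 3.35 ± 1.16, edgeR adjusted p = 0.11). The Sostdc1 groups did not overlap, but 57 healthy cells give little precision.

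Whether the disease difference itself differed between classes was tested against Il6+ cells with animal as a block. The Sfrp2 difference in Mmp3+ cells was lower than in Il6+ cells by log2 3.31 ± 0.70 (a value of −3.31, edgeR adjusted p = 0.0047), the only 1 of the 9 members to pass in any of the 4 classes set against Il6+ cells, where 5.07% of genes passed for lining, 3.49% for Mmp3+, 0.245% for Cd200+ and 0.113% for Pi16+ cells. It rests on 1 cell: of 58 healthy Mmp3+ Sfrp2 UMIs, healthy animal 3 gave 57, and 55 of these came from a single cell. Without healthy animal 3 the value was 1.10 ± 2.54 (edgeR adjusted p = 0.91). The Wif1 difference in Cd200+ cells against Il6+ cells was −2.07 ± 0.50 and did not pass (edgeR adjusted p = 0.085).

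A calculation without a test set the class mix against the levels within classes. The mix was here each class's share of all fibroblast UMIs, not of cells, so RNA per cell enters it. For Mmp3+ cells that share was 52.7% in untreated and 3.29% in healthy animals. Healthy class levels taken at the untreated class mix gave Wnt5a a log2 difference of −0.83 (−1.07 to −0.64 with 1 animal left out), next to −0.82 in full, while untreated levels at the healthy mix gave −0.29 (−0.64 to −0.057). For Dkk2 the mix alone gave −0.83 (−1.04 to −0.72) of −0.92, and levels alone −0.15 with a range from −0.53 to 0.14, so its sign depended on 1 animal. The reverse was seen for Sostdc1, where levels alone gave 2.59 (2.02 to 2.82) of 3.8 and the mix alone 0.48 (−0.22 to 0.88). Sfrp1 likewise had 0.97 (0.79 to 1.15) from levels of 1.24 in full, and 0.33 (−0.19 to 0.60) from the mix. For Sfrp4 the mix alone gave −0.78 (−0.93 to −0.70) and levels alone a value between −1.43 and −0.77 with 1 animal left out, next to −1.77 in full. For Wif1 levels alone gave −1.79 and the mix alone −0.75, next to −1.32 in full. The mix-only values use healthy Mmp3+ levels from 57 cells. The levels-only values give untreated Pi16+ levels, from 54 cells, the healthy Pi16+ weight of 44.9%. The untreated Pi16+ level was 38.0 ± 36.3 CPM for Dkk2, 27.2 ± 20.3 CPM for Wnt5a and 12.2 ± 17.2 CPM for Sostdc1.

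**Figure D3:**
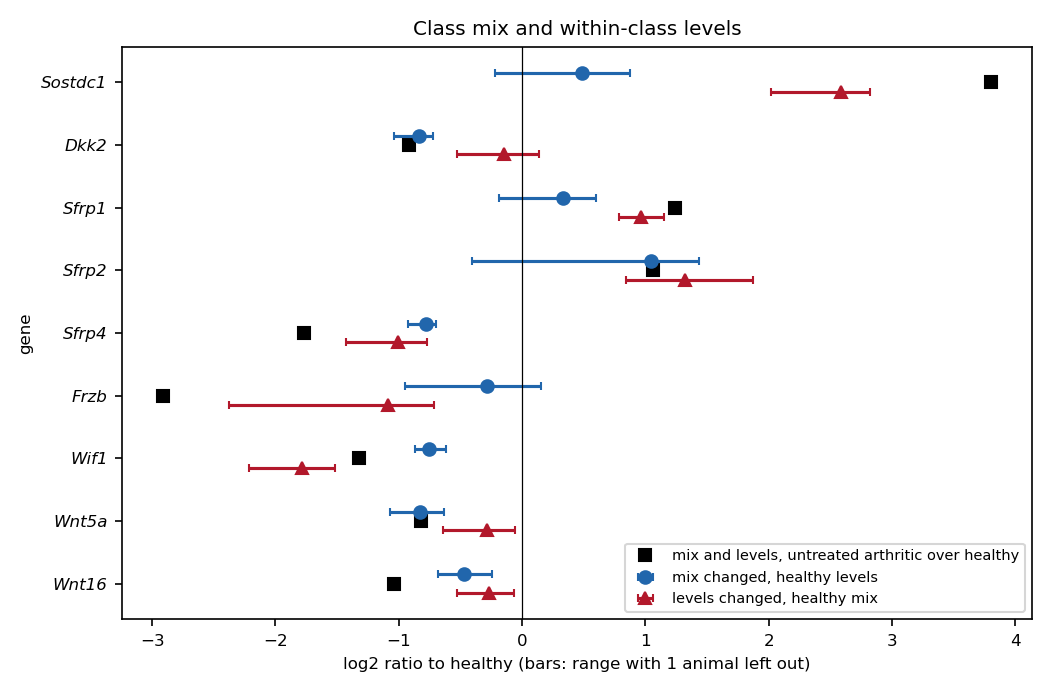
Log2 difference, untreated arthritic minus healthy, of each member calculated with both class mix and class levels changed, with the class mix alone and with the class levels alone; bars on the last 2 give the range with 1 animal left out. The mix is each class's share of all fibroblast UMIs. Dkk2 and Wnt5a lie close to their mix-only values, Sostdc1 and Sfrp1 closer to their levels-only values.

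**Figure D4:**
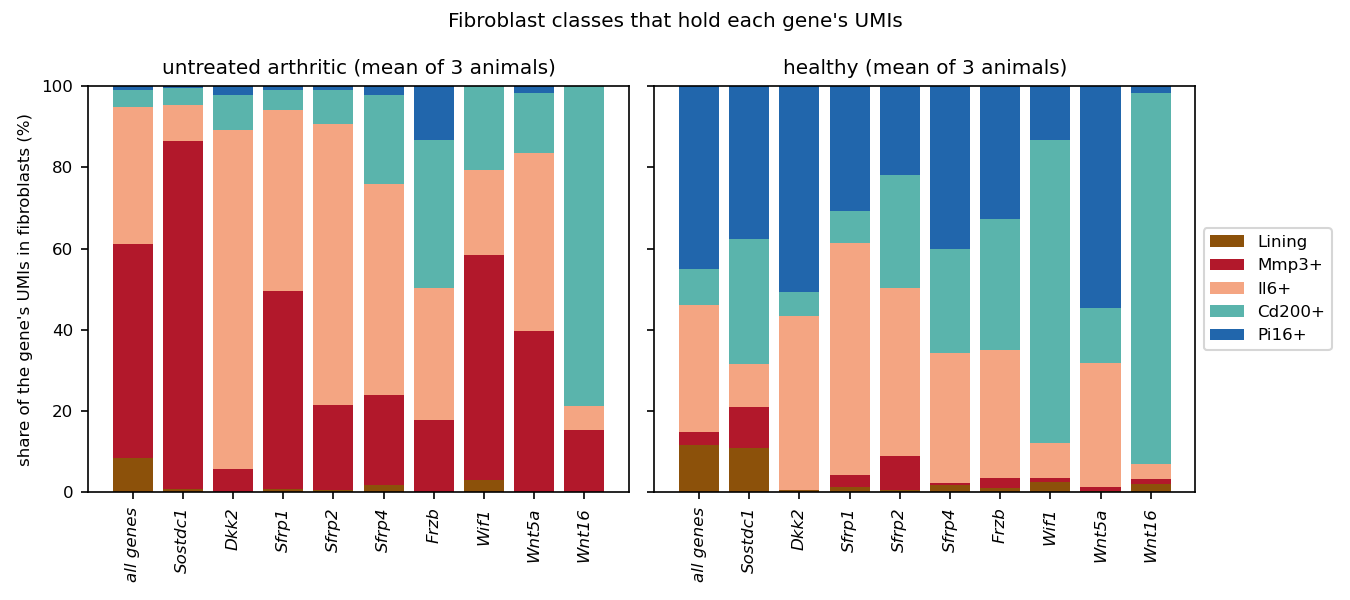
Share of each member's fibroblast UMIs by class, mean over animals, for untreated arthritic and healthy animals, with all genes for comparison. Cd200+ cells give 78.7% of Wnt16 UMIs in untreated and 91.3% in healthy animals. Dkk2 and Wnt5a have 50.8% and 54.6% of their healthy UMIs in Pi16+ cells, which hold 44.9% of all healthy UMIs.

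TNF inhibition was compared with no treatment among arthritic animals. Only Dkk2 passed of the 9 members, against 5.55% of all genes: it had 7.80, 5.52 and 7.64 CPM in TNF-inhibited animals and 25.7, 19.1 and 19.3 CPM in untreated animals. No TNF-inhibited animal reached the untreated range (log2 −1.64 ± 0.32, edgeR adjusted p = 0.019). The call was lost without untreated animal 1 (edgeR adjusted p = 0.0725) or TNF-inhibited animal 2 (edgeR adjusted p = 0.0783). It was lost too with animals thinned to 1 depth (log2 −1.39, edgeR adjusted p = 0.0621) and with a library term (log2 −0.91, edgeR adjusted p = 0.926), which rests on 1 healthy animal per library and under which no gene passed. Il6+ cells, the main source of Dkk2, were 30.4 ± 7.17% of fibroblasts in TNF-inhibited and 47.8 ± 4.64% in untreated animals (SD, n = 3 each). Within Il6+ cells Dkk2 had 31.6, 26.9 and 19.0 CPM in TNF-inhibited and 62.9, 55.3 and 55.1 CPM in untreated animals, again without overlap, though this did not pass over all genes (log2 −1.14 ± 0.31, edgeR adjusted p = 0.12).

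The other 8 members did not pass under TNF inhibition. Sostdc1 had 13.2, 17.6 and 26.3 CPM in TNF-inhibited and 19.2, 30.5 and 27.7 CPM in untreated animals, and Sfrp1 126, 134 and 132 CPM and 117, 140 and 126 CPM. Both sets overlapped. Within single classes no member passed by edgeR, where 1.33% of genes passed in lining, 2.33% in Mmp3+, 0.254% in Il6+ and 1.07% in Cd200+ cells, 0% in the class annotated as chondrocytes and 1.26% in osteoblasts. In Il6+ cells 1 of 8 members, Dkk2, had an unadjusted p under 0.05 (14.6% of all genes), in lining cells 1 of 4 (14.6%), in Mmp3+ cells 1 of 8 (18.6%) and in the osteoblast class 3 of 7 (15.4%), while Pi16+ cells of TNF-inhibited animals, 6, 1 and 2 in number, were below the minimum of 10 and were not fitted. In the Cd200+ class 3 of 9 members had one (14.6% of all genes) and in the class annotated as chondrocytes 2 of 9 (9.77%), Dkk2 among them in both (log2 −1.91 ± 0.60 and −1.48 ± 0.37, edgeR adjusted p = 0.14 and 0.23). Beside these values, the 8 muscle markers summed to 92.0 to 134 CPM in TNF-inhibited and 211 to 300 CPM in untreated fibroblasts, and the part of this in the result was not tested.

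Sostdc1 and Sfrp1 were lower in IL-17-inhibited than in untreated animals, the 2 of 9 members that passed, against 8.45% of all genes. Both were higher in untreated than in healthy animals, a comparison that shares the untreated animals with this one. Sostdc1 had 6.13, 3.91 and 9.27 CPM in IL-17-inhibited animals and 19.2, 30.5 and 27.7 CPM in untreated animals, without overlap (log2 −2.01 ± 0.29, edgeR adjusted p = 0.0026). Sfrp1 had 54.1, 72.0 and 97.4 CPM in IL-17-inhibited and 117, 140 and 126 CPM in untreated animals, without overlap (log2 −0.78 ± 0.16, edgeR adjusted p = 0.012). The Sfrp1 call was lost without untreated animal 2 (edgeR adjusted p = 0.0581).

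Both differences also passed within Mmp3+ cells, where 6.41% of genes passed. There Sostdc1 had 6.54, 5.59 and 15.6 CPM in IL-17-inhibited animals and 34.7, 51.9 and 46.0 CPM in untreated animals (log2 −2.24 ± 0.32, edgeR adjusted p = 0.0021), a call kept with any 1 animal left out. Sfrp1 differed by log2 −1.30 ± 0.31 (edgeR adjusted p = 0.025) in these cells but lost its call when any one of 5 animals was left out, all but IL-17-inhibited animal 3. The share of Mmp3+ cells among fibroblasts was 38.2 ± 5.42% in IL-17-inhibited and 38.8 ± 3.70% in untreated animals (SD, n = 3 each), within the spread. With a library term, which rests on 1 healthy animal per library, the fold changes were log2 −2.10 for Sostdc1 and −0.90 for Sfrp1 with edgeR adjusted p of 0.741 and 0.629, and no gene passed. No member passed by edgeR within the other classes, where 0.495% of genes passed in lining, 2.24% in Il6+, 1.48% in Cd200+ and 0.307% in Pi16+ cells, 0.234% in the class annotated as chondrocytes and 0.594% in osteoblasts. In the same order of classes 0, 2, 3, 1, 4 and 2 members had an unadjusted p under 0.05, beside 12.7%, 16.8%, 15.3%, 12.3%, 11.8% and 9.47% of all genes. Among these, Sfrp1 differed by log2 −1.41 ± 0.34 in the osteoblast class and −1.37 ± 0.42 in the class annotated as chondrocytes (edgeR adjusted p = 0.077 and 0.19). Sostdc1 differed by −1.87 ± 0.60 in Il6+ cells and −1.37 ± 0.53 in the class annotated as chondrocytes (edgeR adjusted p = 0.13 and 0.30). Smaller differences were −0.20 ± 0.17 for Sfrp1 in Il6+ cells and −0.61 ± 0.55 for Sostdc1 in Cd200+ cells. The keratinocyte markers summed to 73.8 to 92.0 CPM in IL-17-inhibited and 31.5 to 34.4 CPM in untreated fibroblasts and the muscle markers to 58.6 to 96.5 and 211 to 300, and their part was not tested.

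Between the inhibitors, 2 of 9 members passed, against 7.6% of all genes. Sostdc1 was lower in IL-17-inhibited animals, with the values above against 13.2, 17.6 and 26.3 CPM in TNF-inhibited animals (log2 −1.51 ± 0.29, edgeR adjusted p = 0.0081). Sfrp1 was also lower, against 126, 134 and 132 CPM in TNF-inhibited animals (log2 −0.79 ± 0.16, edgeR adjusted p = 0.0096). Neither gene's groups overlapped. With a library term both calls were lost (log2 −2.21 and −1.06, edgeR adjusted p = 0.777 and 0.617), and the Sfrp1 call also with only these 2 groups in the fit (log2 −0.79, edgeR adjusted p = 0.0609). Wif1 had 23.9, 14.4 and 12.7 CPM in IL-17-inhibited and 7.59, 8.10 and 10.8 CPM in TNF-inhibited animals, without overlap, but did not pass (log2 0.98 ± 0.32, edgeR adjusted p = 0.079), though it did by DESeq2 (log2 0.97, DESeq2 adjusted p = 0.0385). The Dkk2 difference between inhibitors was 0.82 ± 0.32 and did not pass (edgeR adjusted p = 0.15), so its lower level under anti-hTNF was not shown to differ from that under anti-mIL-17a, where it had 5.25, 15.3 and 14.9 CPM.

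Set against the same 3 healthy animals that the untreated comparison used, 8 of 9 members passed in TNF-inhibited animals (38.9% of all genes) and 6 of 9 in IL-17-inhibited animals (35.6%). Sostdc1 was higher by log2 3.21 ± 0.42 under TNF inhibition and by 1.69 ± 0.45 under IL-17 inhibition, and Sfrp1 by 1.33 ± 0.17 and 0.54 ± 0.17. Dkk2 was lower by log2 −2.55 ± 0.33 and −1.73 ± 0.31, Frzb by −3.72 ± 0.52 and −2.66 ± 0.46, Sfrp4 by −1.38 ± 0.30 and −0.97 ± 0.29, and Wnt5a by −0.71 ± 0.12 and −1.07 ± 0.12. The 3 comparisons against healthy animals share those animals, so their values stand side by side only. Wif1 passed under TNF inhibition only (−1.71 ± 0.33, and −0.73 ± 0.32 with an edgeR adjusted p of 0.088 under IL-17 inhibition), as did Wnt16 (−0.88 ± 0.29 and −0.23 ± 0.28). Whether the 2 treatments differed is given for Wif1 by the comparison above. For Wnt16 the comparison between inhibitors gave log2 0.66 ± 0.27 and did not pass (edgeR adjusted p = 0.16). Under TNF inhibition Wnt16 lost its call without TNF-inhibited animal 2 or healthy animal 1 or 2 and with animals thinned to 1 depth (log2 −0.64, edgeR adjusted p = 0.107), and with a library term Wif1 and Wnt16 lost theirs while Sfrp2 gained one (log2 2.09, edgeR adjusted p = 0.0118). Under IL-17 inhibition Sfrp1 lost its call with only the 2 groups in the fit (log2 0.54, edgeR adjusted p = 0.0532) and without IL-17-inhibited animal 3 or healthy animal 1 or 2, and Sfrp4 without IL-17-inhibited animal 3 or healthy animal 2 or 3, and with a library term Sostdc1, Sfrp1 and Sfrp4 lost theirs (edgeR adjusted p = 0.268, 0.328 and 0.0876).

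**Figure D5:**
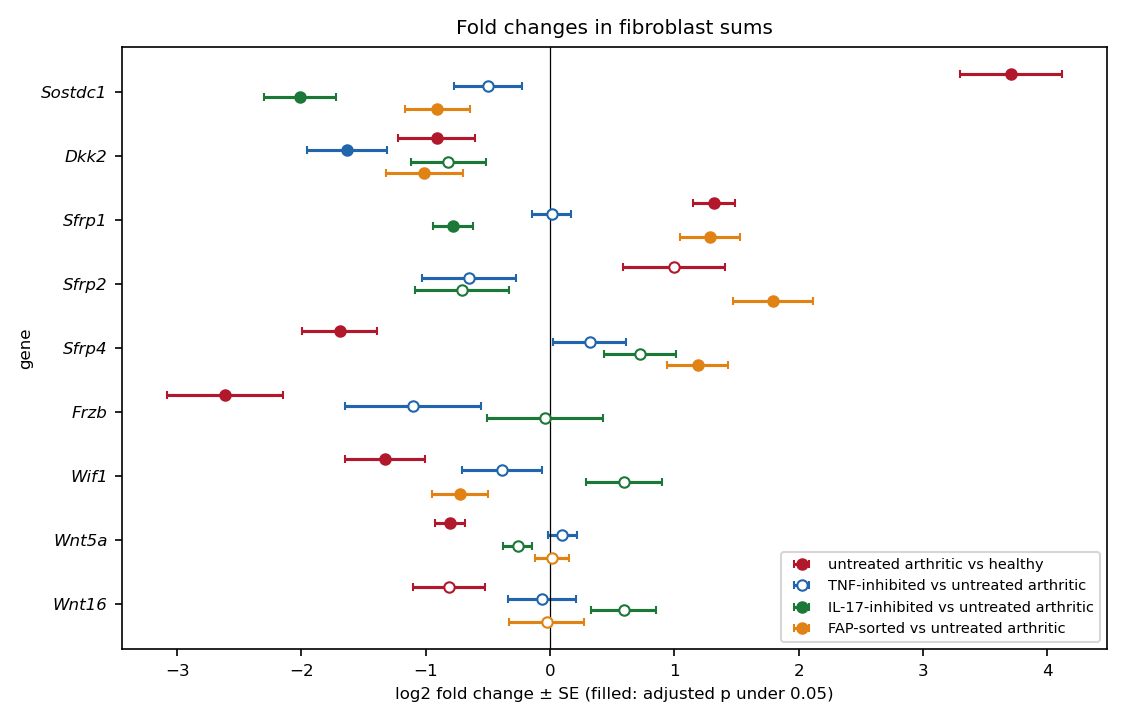
Log2 fold change with its SE for each member in the comparisons of fibroblast sums; filled points passed an adjusted p of 0.05 by edgeR. Sostdc1 and Sfrp1 lie above 0 against healthy animals and below 0 under IL-17 inhibition against untreated animals.

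FAP-sorted fibroblasts were set against untreated unsorted fibroblasts, both from arthritic animals without inhibitor. Of 8 members tested, 6 passed, against 42.9% of the 13418 genes tested (21.3% higher, 21.5% lower), and Frzb was filtered out for low counts. The sort, the library and the version of the counting software cannot be told apart in this comparison. Sfrp2 had 115, 199.5, 140, 324 and 181 CPM in FAP-sorted animals and 70.2, 41.4 and 52.9 CPM in untreated animals (log2 1.79 ± 0.32, edgeR adjusted p = 0.0017). Sfrp1 had 283, 207, 345, 499 and 256 CPM in FAP-sorted and 117, 140 and 126 CPM in untreated animals (log2 1.29 ± 0.24, edgeR adjusted p = 0.0022). Sfrp4 had 67.3, 114, 66.7, 84.8 and 135 CPM in FAP-sorted and 49.9, 36.1 and 36.0 CPM in untreated animals (log2 1.19 ± 0.24, edgeR adjusted p = 0.0035). All 3 Frizzled-related genes were higher without overlap.

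The other 3 antagonists tested were lower in the FAP-sorted library: Dkk2 (log2 −1.01 ± 0.31, edgeR adjusted p = 0.023), Sostdc1 (−0.91 ± 0.26, edgeR adjusted p = 0.018) and Wif1 (−0.72 ± 0.23, edgeR adjusted p = 0.026). Each lost its call when some single animal was left out, Dkk2 without untreated 1, Sostdc1 without untreated 2 or 3 and Wif1 without untreated 3 or FAP-sorted 3 or 5. By DESeq2 the Dkk2 call was lost too (log2 −0.99, DESeq2 adjusted p = 0.0524), leaving 5 members called. Wnt5a (log2 0.02 ± 0.14) and Wnt16 (log2 −0.03 ± 0.30) did not pass (edgeR adjusted p = 0.93 and 0.95). Classes were mixed differently: Mmp3+ cells were 61.5 ± 9.93% of FAP-sorted and 38.8 ± 3.70% of untreated fibroblasts, and Il6+ cells 19.2 ± 5.46% and 47.8 ± 4.64% (SD, n = 5 and n = 3). The Sfrp2 level was higher in FAP-sorted animals within both of these classes, at 177 ± 86.0 CPM against 22.1 ± 3.65 CPM in untreated Mmp3+ cells and at 371 CPM (207 to 607) against 124 ± 31.7 CPM in untreated Il6+ cells, given without a test. Muscle markers summed to 3.44 to 4.44 CPM in FAP-sorted and 211 to 300 CPM in untreated fibroblasts and leukocyte markers to 65.3 to 105 and 32.9 to 38.9, and their part was not tested. The median share of UMIs from mitochondrial genes was 2.98 to 3.35% in FAP-sorted and 2.29 to 2.36% in untreated fibroblasts, its part also not tested.

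The other Wnt genes were read from lists of ligands, antagonists, receptors, R-spondin signalling, secretion, the cytoplasmic core and feedback targets. The lists of ligands and antagonists include the members, so their counts and medians partly repeat the values above. In untreated against healthy fibroblasts, 2 of 10 tested ligands were higher and 5 lower, beside 14.4% and 14.3% of all genes. Wnt6 (log2 3.16 ± 0.44) and Wnt10a (2.96 ± 0.78) were higher, while Wnt10b (−3.33 ± 0.31) and Wnt2 (−3.16 ± 0.46) were lower, with Wnt5a and 2 others. Healthy fibroblasts held only 17 Wnt6 and 4 Wnt10a UMIs. Of 10 tested antagonists 3 were higher, Dkk3 (log2 0.56 ± 0.14) beside Sostdc1 and Sfrp1, and 4 lower, all members described above. The median log2 fold change was −0.81 over the ligands and 0.02 over the antagonists, beside 0.01 over all genes.

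On the receiving side, where the 28.7% of all genes called in either direction is again the background, 3 of 18 receptors and co-receptors were higher, among them Ror1, a Wnt5a receptor (log2 1.61 ± 0.21), Fzd1 (0.95 ± 0.09) and Ptk7 (0.91 ± 0.15), and 3 were lower, among them Fzd2 (−1.01 ± 0.21). Rspo3, which amplifies Wnt signals by sparing Frizzled receptors from turnover, was higher (log2 2.34 ± 0.18), and Lgr6 (−2.10 ± 0.59) and Lgr4 (−0.45 ± 0.12), both R-spondin receptors, were lower, out of 8 tested. The Lgr6 value rests on 15 UMIs in untreated and 16 in healthy fibroblasts. Porcn, which attaches the lipid to Wnt proteins, was higher (log2 1.00 ± 0.19), the 1 of 2 secretion genes to pass. None of 7 feedback targets such as Axin2 passed by edgeR or DESeq2, and none had an unadjusted p under 0.05. In the cytoplasmic core 1 of 10 was higher, the kinase Csnk1a1 (0.42 ± 0.09), and 2 were lower, the transcription factors Tcf7l1 (−0.96 ± 0.15) and Tcf7l2 (−0.44 ± 0.11). The shares of receptors and of core genes called were near the background.

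Under TNF inhibition the ligand Wnt6 (log2 −1.52 ± 0.29) and the co-receptor Lrp6 (−0.50 ± 0.11) were lower beside Dkk2, each the 1 gene of its list to pass (5.55% of all genes). Under IL-17 inhibition, with 8.45% of all genes called, Wnt10b (1.16 ± 0.30) and Wnt9a (0.48 ± 0.11) were higher of 10 ligands, and Apcdd1 (−0.81 ± 0.14), a membrane-bound Wnt inhibitor, was lower beside Sostdc1 and Sfrp1 of 10 antagonists. Lrp6 (−0.41 ± 0.11) and Fzd4 (−0.47 ± 0.12) were lower of 18 receptors, and the cell cycle gene Ccnd1 (1.44 ± 0.27) was higher of 7 feedback targets. Both sets of values use the same untreated animals. Between the inhibitors, with 7.6% of all genes called, Wnt10a (1.84 ± 0.46), Wnt6 (1.65 ± 0.29), Rspo2 (1.43 ± 0.29) and Ccnd1 (2.28 ± 0.28) were higher in IL-17-inhibited animals, and Apcdd1 (−0.69 ± 0.14) and Lgr4 (−0.40 ± 0.11) lower.

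In FAP-sorted against untreated fibroblasts, 5 of 10 tested antagonists were higher and 3 lower, beside 42.9% of all genes called in either direction, with Notum (log2 1.29 ± 0.28), which removes the lipid from Wnt proteins, and Dkk3 (0.80 ± 0.12) beside the members. Of 10 ligands 3 were higher, led by Wnt5b (0.83 ± 0.17), and Wnt11 was lower (−0.67 ± 0.21). Rspo2 (1.44 ± 0.16) and Rspo1 (1.28 ± 0.18) were higher, and Lgr5 (−0.92 ± 0.28) and Znrf3 (−0.67 ± 0.15) were among 3 lower of 6 R-spondin genes. Of 6 feedback targets Axin2 (−0.96 ± 0.22) and Myc (−0.70 ± 0.17) were lower and Ccnd1 (0.36 ± 0.11) was higher. The shares of ligands and of feedback targets called were near that of all genes.

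Finally, for each member the 3 genes with the most similar level were named by Pearson's r of log2(CPM + 1) over 116 class-by-animal sums, among 7423 genes with a mean of at least 10 CPM. These values are a description, since sums of 1 animal share its library and depth. Wnt16 had the closest partners, Fgfr2 (r = 0.909), Npnt (0.901) and Ostn (0.891), the last of them encoding the bone-derived peptide osteocrin. Wnt5a was followed by Twist1 (0.869), Maf (0.850) and Flrt2 (0.847), Sfrp1 by Gas6 (0.882), Cxcl14 (0.840) and Emb (0.836), and Wif1 by Chad (0.839), Ptma (0.814) and Kcnma1 (0.801). Dkk2 went with Lama2 (0.821), Celf2 (0.817) and Myoc (0.811), Sfrp4 with Pcdh18 (0.812), Bicc1 (0.784) and Tacc1 (0.781), and Sfrp2 with Mfap2 (0.795), Gas6 (0.790) and Mfap4 (0.764). Frzb (Irf2bpl, 0.672) and Sostdc1 (Chil1, 0.670) had the least close partners, and the next for Sostdc1 after Rrad was the member Sfrp1 (0.591).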

How the data were processed

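The deposited files hold raw UMI counts per gene and barcode for 4 libraries, with hashtag counts. The authors made these counts with Cell Ranger, and the submitters' processing notes name the build mm10. The headers of the unsorted matrices give version 6.0.0, that of the FAP-sorted matrix 5.0.0, and those notes 6.0.6. Cell filtering, doublet removal and the making of the classes are not described in the labels or headers, and no doublet caller was run. The authors' deposited annotation gave each cell's class and hashtag, and each hashtag was taken as 1 animal, so p-values measure the spread between animals.

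Raw counts were summed per animal over the 5 fibroblast classes, or within a class with at least 10 cells, and tested with edgeR 4.0.16 (TMM, filterByExpr by group, quasi-likelihood test, R 4.3.3) with Benjamini-Hochberg adjustment over all genes and a threshold of 0.05. The 12 unsorted animals shared 1 fit, and the FAP-sorted comparison used 8 animals. The SE of an edgeR log2 fold change was derived from its test, as the absolute fold change divided by the square root of the F statistic. The fits were checked on simulated data. Alternatives were DESeq2 1.42.0, other filters, depth and cell minimums, a library term, a replicate block and each animal left out. The members and gene lists were chosen with earlier results of these data known. All members were named in every comparison, with at most 4 genes of each other list, those with the largest absolute log2 fold change past the threshold. Intervals and floors for shares of cells cover counting error only.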

Additional observations from a re-analysis of the deposited data

Results flagged for a closer look

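The Sfrp2 difference between untreated arthritic and healthy animals was lower in Mmp3+ than in Il6+ cells by a tested log2 value of −3.31, which rests on healthy animal 3: it held 57 of the 58 healthy Mmp3+ UMIs, 55 of them in 1 cell, and without it the value was 1.10 (edgeR adjusted p = 0.91).

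Barcodes outside the authors' annotation, which no comparison used, also held UMIs of every member: 40.2% of all Dkk2 UMIs, 31.7% for Sfrp1, 34.5% for Sfrp2, 31.9% for Sfrp4, 43.9% for Frzb, 44.8% for Wif1, 33.6% for Sostdc1, 30.2% for Wnt16 and 33.3% for Wnt5a, beside 36.6% of the UMIs of all genes. Wif1, Frzb and Dkk2 lay above that share and the other 6 members below it. What these barcodes hold was not tested.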

How the results depend on the processing

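Of 1026 recomputed values over 79 results of single genes, 890 kept their direction and side of the threshold, 82 lost a call, 21 gained one and 33 changed sign. The number of members called went to 4 against healthy animals, from 7, both with a library term and with the healthy animal of the same library only. Under TNF inhibition it went to 0, from 1, with animals thinned to 1 depth and with a library term, and to 2 with hashtag number as a replicate block. For IL-17 inhibition it was 0 with a library term, and between the inhibitors, from 2, it was 1 with only these groups in the fit, 0 with a library term and 1 with the block. In IL-17-inhibited against healthy animals it was 3, from 6, with either library setting. Within lining cells 1 member passed, from 0, without healthy cells that had a Y-linked UMI, a setting chosen after seeing the data.

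With each animal left out, the members called ranged from 6 to 8 in untreated and 7 to 8 in TNF-inhibited against healthy animals, 4 to 7 in IL-17-inhibited against healthy animals, 0 to 1 under TNF inhibition, 1 to 3 under IL-17 inhibition, 2 to 3 between inhibitors and 4 to 7 for FAP-sorted animals. Within classes against healthy animals the ranges were 0 to 4 in Il6+, 1 to 2 in Cd200+, 0 to 1 in Mmp3+ and in Pi16+ cells, 3 to 5 in the class annotated as chondrocytes and 2 to 4 in osteoblasts. Under IL-17 inhibition they were 1 to 3 in Mmp3+ and 0 to 1 in Cd200+ cells and osteoblasts, and 0 to 2 for the difference between classes.

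The changes of sign were all in genes that had not passed, except Sfrp2 in Mmp3+ against Il6+ cells, which was 1.10 without healthy animal 3 and −3.93 at its lowest. With a library term, TNF inhibition gave Sfrp2 1.08, Wif1 0.21, Sostdc1 0.11 and Wnt16 0.019, IL-17 inhibition gave Wif1 −0.062, the inhibitors against each other gave Wif1 −0.27, and IL-17-inhibited against healthy animals gave Sfrp2 −0.53 and Wnt16 0.22, or −0.51 and 0.24 with the healthy animal of the same library only. Under TNF inhibition Wnt16 was 0.13 with thinning and 0.043 with the block, and −0.33 to 0.24 with an animal left out, where Sfrp1 was −0.047 to 0.083. Frzb was −0.20 to 0.13 under IL-17 inhibition and Sfrp2 −0.27 to 0.23 between inhibitors. For FAP-sorted animals Wnt16 was 0.019 by DESeq2, 0.049 with the block and −0.29 to 0.28 with an animal left out, and Wnt5a −0.11 with the block and −0.071 to 0.089. Against healthy animals Sfrp2 was −0.082 to 0.94 in TNF-inhibited and −0.14 to 0.88 in IL-17-inhibited animals. The cause of these changes was not tested.

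With the block, the Sfrp1 call between inhibitors (log2 −0.84, edgeR adjusted p = 0.0677) and the FAP-sorted Wif1 call (log2 −0.57, edgeR adjusted p = 0.141) were lost, and Sfrp2 passed under TNF inhibition (log2 −0.67, edgeR adjusted p = 0.00887). With no filter on low counts Sfrp2 and Wnt16 passed in untreated against healthy animals, Dkk2 under IL-17 inhibition and Wif1 between inhibitors (edgeR adjusted p = 0.0213, 0.031, 0.0449 and 0.0186). Wnt16 passed in untreated against healthy animals with RLE size factors too (edgeR adjusted p = 0.0489), Sfrp2 under IL-17 inhibition with only the 2 groups in the fit (edgeR adjusted p = 0.0303), and Wif1 in IL-17-inhibited against healthy animals without healthy cells that had a Y-linked UMI (edgeR adjusted p = 0.0481).

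Hashtag numbers did not pair the animals: the correlation of deviations between same-numbered animals was 0.0727 to 0.156 under TNF inhibition, −0.095 to −0.0306 under IL-17 inhibition, −0.169 to −0.00471 between inhibitors and −0.0311 to 0.174 for FAP-sorted animals. Over all genes, untreated against healthy animals had 4116 calls, 2317 with a library term and 2446 with the same library's healthy animal only, TNF inhibition 797, 1448 by DESeq2, 361 with thinning and 0 with a library term, IL-17 inhibition 1212, 2001 with only its groups in the fit, 567 with thinning and 0 with a library term, and the inhibitors 1090, 495 with only their groups, 553 with thinning, 254 with the block and 0 with a library term. TNF-inhibited against healthy animals had 5588, 2788 with a library term and 2613 with the same library's healthy animal only, and IL-17-inhibited animals 5115, 1948 and 1812. Low counts limit Frzb, Lgr6 and the healthy Wnt6 and Wnt10a values, and the number of cells limits the healthy Mmp3+ values.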
